A study of Mus musculus with 6 samples.

Results

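Insig1, Srebf1 and Nr1h3, the genes through which a cell senses sterols and sets their synthesis and export, were followed in whole mouse testis. The array carried 1 probe for each, matched by the platform's gene symbol, so that 3 of 33012 probes, and 3 of 13840 genes named on the array, were members. Each was detected on all 6 arrays and stood among the 16015 probes that were tested. Testis RNA of 6 adult male mice on the C57BL/6J background, 10 to 12 weeks of age, was hybridised to 6 one-colour arrays, 2 in each of 3 groups. Wild-type mice and Abcg8 knockout mice ate rodent chow, and a further group of Abcg8 knockout mice ate chow with 0.005% ezetimibe. No source used here gives the allele of Abcg8 or the length of the feeding. There was no ezetimibe-fed wild-type group, so ezetimibe was compared within the knockout genotype alone.

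As background, SREBP transcription factors are made as membrane proteins that the escort Scap carries to the Golgi, where proteases release the active part. When sterols are plentiful, Insig proteins hold Scap in the endoplasmic reticulum, and Insig1 is itself an SREBP target, so its mRNA tends to fall when sterols accumulate. Srebf1 encodes SREBP1, which drives fatty acid synthesis, while Srebf2 encodes SREBP2, which drives cholesterol synthesis. Nr1h3 encodes LXR alpha, a nuclear receptor that binds oxysterols, pairs with RXR and induces sterol export genes and Srebf1. Abcg8 pairs with Abcg5 to pump cholesterol and plant sterols out of liver and gut cells, and ezetimibe blocks sterol uptake in the gut. In testis, Leydig cells draw on cholesterol for testosterone, and germ and Sertoli cells make sterols of their own. The question was whether the sensors followed genotype or ezetimibe.

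Before the results, the labels were checked against the targeted gene. The Abcg8 probe (570984) read, in raw signal, 1715 and 569 for wild-type, 20013 and 22134 for knockout, and 25697 and 24767 for ezetimibe-fed knockout mice. It was higher on the arrays labelled knockout by 3.88 log2 units (SE 0.13, limma adjusted p = 0.0177), which goes against the label, and this call was lost when any 1 array was left out. Whether the probe lies within what the knockout removes is not known here, so it may check nothing. Every direction between genotypes below therefore rests on the labels, and the arrays are named by them. Wild-type replicate 2 was the dimmest array, with a median raw signal of 258 against 515 to 678 on the other arrays. Of the germ cell markers, 7 of 9 listed spermatid genes were on the array. These 7, among them the protamine genes Prm1 and Prm2, were detected on all 6 arrays, while the liver genes Alb, Ttr and Apoa1 were detected on none. After the quantile normalisation used below, the summed spermatid signal was still 4959547 on wild-type replicate 2, against 3269392 to 3471243 on the other arrays.

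The bases just upstream of each member's transcript start are shown with those of Msmo1 and Hsd17b7, the sterol enzyme genes whose signal ran closest to that of Insig1 below. The sequences are from RefSeq on GRCm38.p6, each the 250 bases before a start, read on the gene's strand. Capitals mark TCACCC, the core of a sterol regulatory element, and CCAAT, the box bound by NF-Y, on either strand. Srebf1 has 3 annotated starts and Nr1h3 has 2, and for each the window with most kinds of motif is printed, or the first of equals. The windows are chr5:28071162-28071411 (+) for Insig1, chr11:60210472-60210721 (-) for Srebf1, chr2:91195117-91195366 (-) for Nr1h3, chr8:64733579-64733828 (-) for Msmo1 and chr1:169969206-169969455 (-) for Hsd17b7.
Insig1: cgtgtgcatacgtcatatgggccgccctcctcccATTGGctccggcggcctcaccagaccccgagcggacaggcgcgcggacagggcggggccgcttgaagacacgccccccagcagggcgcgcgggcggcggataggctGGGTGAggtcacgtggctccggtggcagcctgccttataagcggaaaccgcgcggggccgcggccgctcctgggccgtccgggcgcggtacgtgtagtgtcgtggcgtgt
Srebf1: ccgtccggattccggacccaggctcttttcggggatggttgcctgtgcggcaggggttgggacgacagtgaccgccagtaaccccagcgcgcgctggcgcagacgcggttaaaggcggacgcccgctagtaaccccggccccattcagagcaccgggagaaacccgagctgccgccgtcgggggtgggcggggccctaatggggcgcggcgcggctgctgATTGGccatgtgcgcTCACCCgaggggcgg
Nr1h3: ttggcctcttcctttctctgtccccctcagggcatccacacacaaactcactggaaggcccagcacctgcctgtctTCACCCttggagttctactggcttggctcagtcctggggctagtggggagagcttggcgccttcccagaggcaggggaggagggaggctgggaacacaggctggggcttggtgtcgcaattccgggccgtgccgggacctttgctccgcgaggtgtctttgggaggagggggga
Msmo1: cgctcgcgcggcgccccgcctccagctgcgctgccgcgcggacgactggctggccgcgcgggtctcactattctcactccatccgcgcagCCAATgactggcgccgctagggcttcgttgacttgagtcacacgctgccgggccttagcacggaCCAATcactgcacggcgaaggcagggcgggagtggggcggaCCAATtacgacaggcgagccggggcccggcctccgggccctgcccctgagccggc
Hsd17b7: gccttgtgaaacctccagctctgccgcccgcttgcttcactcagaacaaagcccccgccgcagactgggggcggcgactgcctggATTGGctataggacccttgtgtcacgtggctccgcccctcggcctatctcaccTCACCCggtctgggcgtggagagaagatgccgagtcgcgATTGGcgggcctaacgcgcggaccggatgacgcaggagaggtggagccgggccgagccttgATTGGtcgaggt

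The windows of Insig1, Srebf1 and Hsd17b7 held both marked motifs, as did 4.26% of 32851 windows of the same length. The Srebf1 window was picked from 3 for its motifs, and the other 2 held no TCACCC, so that share is no measure for it. In Srebf1 the TCACCC began 15 bases before the start and the CCAAT box 30 bases before it. In Insig1 they lay further out, at 110 and 216 bases. Nr1h3 had TCACCC, found in 13.8% of windows, and no CCAAT box. Msmo1 had 3 CCAAT boxes, a motif of 33.8% of windows, and no TCACCC. The E-box CACGTG, which SREBP1 and other factors bind, stood in the windows of Insig1 and Hsd17b7 and in 6.02% of all. The hexamer AGGTCA, a part of LXR elements, was found in the Insig1 window, where its ends overlapped the sterol core of the opposite strand and the E-box, and in 14.0% of all windows. A pair of AGGTCA hexamers 4 bases apart, the layout that LXR and RXR bind, was in 5 windows of the whole set and in none of the members'. These matches describe letters in a short window and do not show binding.

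Insig1, the brake on SREBP, differed more between the ezetimibe-fed mice, by 0.66 log2 units, than between any groups by their means, whose widest difference was -0.46. In raw signal its probe (342510) read 9473 and 2561 for wild-type, 5399 and 5019 for knockout, and 4941 and 7697 for ezetimibe-fed knockout mice, at a signal-to-noise of 23.2 to 38.5. After quantile normalisation, which removes the overall dimness of an array, the log2 signal was 12.81 and 12.48 in wild-type, 12.13 and 12.23 in knockout, and 12.06 and 12.72 in ezetimibe-fed knockout-labelled testes. Both wild-type values lay above both knockout-labelled values, while the ezetimibe pair held the lowest value of all 6 and the highest but one.

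By group mean, Insig1 stood highest in wild-type-labelled testes at 12.64 ± 0.23 (SD, n = 2), then in ezetimibe-fed knockout-labelled testes at 12.39 ± 0.47 (SD, n = 2) and lowest in knockout-labelled testes at 12.18 ± 0.08 (SD, n = 2). No neighbours in this order differed beyond their spread in the fit across all probes. Knockout-labelled testes differed from wild-type by -0.46 log2 units (SE 0.25, 95% interval -1.12 to 0.19), with limma adjusted p = 0.583. In this comparison 0.0125% of the 16015 probes were called, 8.99% had an unadjusted limma p under 0.05, and 21.1% had both knockout-labelled values below both wild-type values, as Insig1 did. Ezetimibe-fed knockout-labelled testes differed from chow-fed knockout-labelled testes by 0.21 (SE 0.25, 95% interval -0.44 to 0.87, limma adjusted p = 0.945), where 0% of probes were called and 5.76% had an unadjusted limma p under 0.05. That difference was -0.12 without ezetimibe replicate 2 and 0.54 without ezetimibe replicate 1, so it had no settled direction.

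Ezetimibe-fed knockout-labelled testes differed from wild-type in Insig1 by -0.25 (SE 0.25, 95% interval -0.90 to 0.41, limma adjusted p = 0.86), and this turned to 0.08 without ezetimibe replicate 1. Over both diets, the 4 knockout-labelled arrays differed from wild-type by -0.36 (SE 0.22, 95% interval -0.92 to 0.21, limma adjusted p = 0.631), which ranged from -0.52 to -0.19 with each array left out in turn. On the linear scale, the interval of the knockout to wild-type ratio ran from 0.461 to 1.14, so neither a ratio of 1 nor one well under the estimate of 0.726 lay outside it. An F test over the 3 groups gave limma adjusted p = 0.754. The residual SD of Insig1 was 0.30 log2 units, larger than that of 78.3% of the tested probes.

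**Figure D1:**
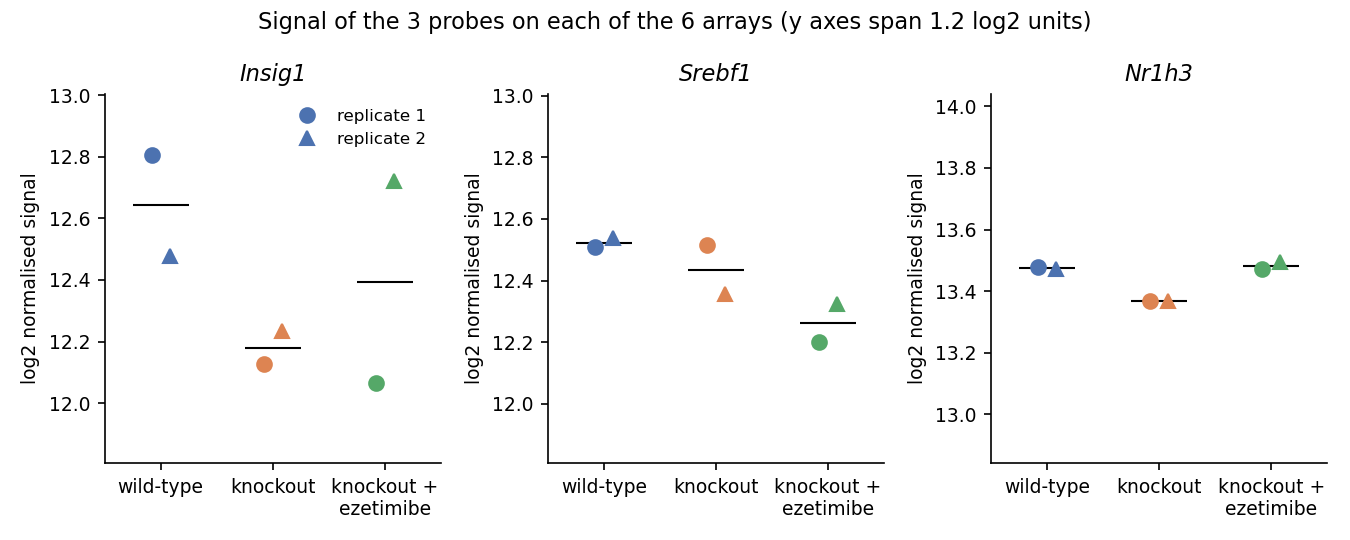
Log2 normalised signal (y) of the Insig1, Srebf1 and Nr1h3 probes on each array, by labelled group (x); circles are replicate 1, triangles replicate 2 and bars the group means, on y axes of equal span. The ezetimibe pair of Insig1 lies 0.66 log2 units apart, while the 6 values of Nr1h3 span 0.13.

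Srebf1, the gene of SREBP1, was lowest in the ezetimibe-fed knockout-labelled testes, by an amount that did not pass. Its probe (909582) gave raw signals of 7749 and 2669 for wild-type, 7037 and 5482 for knockout, and 5449 and 5872 for ezetimibe-fed knockout mice, with a signal-to-noise of 11.95 to 33.37. The normalised log2 signal read 12.51 and 12.54 in wild-type, 12.52 and 12.36 in knockout, and 12.20 and 12.33 in ezetimibe-fed testes. The ezetimibe values lay below all others, and the wild-type and knockout-labelled values overlapped. The probe reads Srebf1 as a gene and is not known here to separate its transcripts from the 3 starts.

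The group means of Srebf1 were 12.52 ± 0.02, 12.44 ± 0.11 and 12.26 ± 0.09 (SD, n = 2 each) in wild-type, knockout and ezetimibe-fed testes. From wild-type to knockout the difference was -0.09 log2 units (SE 0.11, 95% interval -0.37 to 0.19, limma adjusted p = 0.768). From knockout to ezetimibe-fed knockout it was -0.17 (SE 0.11, 95% interval -0.45 to 0.11, limma adjusted p = 0.913). The ezetimibe-fed testes differed from wild-type by -0.26 (SE 0.11, 95% interval -0.54 to 0.02, limma adjusted p = 0.714, unadjusted p = 0.0624). This last was the lowest unadjusted p of the 12 member differences, and 7.24% of probes had an unadjusted p under 0.05 there, while 0.0125% were called. Non-overlap in the lower direction, as shown by Srebf1, was found in 19.7% of probes against knockout and in 18.2% against wild-type. The mean of both knockout groups differed from wild-type by -0.17 (SE 0.09, limma adjusted p = 0.608), and the F test over the 3 groups had limma adjusted p = 0.711.

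The summed signal of markers of interstitial cells was also lower on the ezetimibe arrays. The summed normalised signal of 6 macrophage genes of the 10 listed was 48535 and 54410 there, against 60127 to 65670 on the other 4 arrays, with the complement genes C1qa, C1qb and C1qc detected throughout and Adgre1, which encodes a macrophage surface receptor, detected on none. The sum over 6 of 8 Leydig cell genes, Star and Cyp11a1 among them, was 86233 and 93255 on the ezetimibe arrays and 100773 to 105592 on the others. By gene, the 6 macrophage genes differed by -0.44 to -0.04 in ezetimibe-fed against chow-fed knockout-labelled testes. The 6 Leydig cell genes differed by -0.67 to 0.17, with Hsd3b1 the 1 above 0. Below 0 lay 49.8% of all probes. None of these genes was called (limma adjusted p = 0.566 or more), where 0% of all probes were. Across the 6 arrays Srebf1 had a median r of 0.65 with the macrophage genes and 0.59 with the Leydig cell genes, against -0.03 over the 8266 other genes. The macrophage values ran from -0.10 for Mrc1 to 0.95 for C1qc, and the Leydig cell values from -0.28 to 0.86. Cd163, at 0.94, was detected on 2 arrays alone and counts in the macrophage median. Without it the middle macrophage value is that of Lyz2, 0.43. The part of these markers in the Srebf1 difference was not tested. In whole testis, fewer cells of a type and less RNA per cell cannot be told apart.

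Nr1h3, the LXR alpha gene, was nearly level. Raw signals of its probe (556716) were 15106 and 5114 for wild-type, 12730 and 11130 for knockout, and 13220 and 13198 for ezetimibe-fed knockout mice, at a signal-to-noise of 32.51 to 50.35. In normalised log2 signal the values were 13.48 and 13.47 in wild-type, 13.37 and 13.37 in knockout, and 13.47 and 13.49 in ezetimibe-fed testes. Both knockout-labelled values were the lowest, and the wild-type and ezetimibe values overlapped.

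Nr1h3 averaged 13.48 ± 0.01 in wild-type, 13.37 ± 0.00 in knockout and 13.48 ± 0.02 in ezetimibe-fed testes (SD, n = 2 each). Knockout differed from wild-type by -0.11 log2 units (SE 0.09, 95% interval -0.33 to 0.12, limma adjusted p = 0.657), and ezetimibe-fed knockout from knockout by 0.12 (SE 0.09, 95% interval -0.11 to 0.34, limma adjusted p = 0.918). Ezetimibe-fed knockout stood 0.01 from wild-type (SE 0.09, 95% interval -0.22 to 0.23, limma adjusted p = 0.993). Over both diets the difference from wild-type was -0.05 (SE 0.07, limma adjusted p = 0.818). The F test gave limma adjusted p = 0.785. On the linear scale the interval for ezetimibe-fed knockout over wild-type ran from 0.861 to 1.17.

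The tight pairs of Nr1h3 came with quantile normalisation. The wild-type-labelled arrays differed by 0.01 log2 units after it and by 0.17 in the authors' processed values, which divide each array by a constant. Its residual SD was smaller than that of all but 0.0562% of tested probes, and limma drew it up from 0.01 to a moderated SD of 0.09. Non-overlap of knockout with wild-type in the lower direction was shared with 21.1% of probes, and of ezetimibe-fed knockout with knockout in the higher direction with 19.1%.

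Summed signals of markers of other tissue compartments differed on the knockout-labelled arrays, where Nr1h3 was lowest. The summed normalised signal of 5 of 7 peritubular and matrix genes, the collagen genes Col1a1, Col1a2 and Col3a1 among them, was 63594 and 54068 there against 32091 to 39632 on the other 4 arrays. The sum followed the collagens, which differed by 0.63 to 1.08 log2 units from wild-type (limma adjusted p = 0.434 or more), beside 0.23 for Acta2 and -0.04 for Myh11, the smooth muscle genes of peritubular cells. The summed signal of 6 of 9 Sertoli cell genes, Clu and Fshr among them, was 893413 and 854727 against 716101 to 803528. Clu carried this sum, at a log2 signal of 19.37 to 19.69, with Rhox5 next at 15.17 or less. It differed from wild-type by 0.12 (limma adjusted p = 0.684). All 6 genes lay above 0, as did 50.9% of all probes, from 0.07 for Wt1 to 1.93 for Dhh. None was called, where 0.0125% of all probes were. Dhh was detected on 5 of the 6 arrays, and its wild-type values were 9.36 and 7.32. The sum of 2 of 4 red cell genes, Hba-a1 and Alas2, was 326714 and 163149 against 36791 to 68503. Nr1h3 had a median r of -0.83 with the matrix genes and -0.58 with the Sertoli cell genes over the 6 arrays, against -0.01 over the 8266 other genes. It was -0.79 with the 2 red cell genes and -0.59 with 6 spermatogonia genes, of which Sall4 was detected on 2 arrays alone. With the Leydig cell, macrophage, spermatocyte and spermatid genes the median r was -0.31, -0.27, -0.22 and -0.02. These values are given under quantile normalisation alone. The median r of Nr1h3 with LXR targets, Abcg8 among them, was -0.40 under it and 0.37 in the authors' processed values. The part of these markers in the Nr1h3 values was not tested.

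Scaling also set the sign of the smaller genotype differences. Under median scaling the median of all tested probes in knockout-labelled against wild-type-labelled testes moved from 0.01 to 0.11 log2 units, and 69% of probes lay above 0 in place of 50.9%. Srebf1 then read 0.03 and Nr1h3 0.01, above 0, while Insig1 stayed at -0.34. Relative to the median of all probes the 3 genes were at -0.45, -0.08 and -0.09 under median scaling and at -0.47, -0.09 and -0.11 under quantile normalisation. In the same sense, the ezetimibe difference relative to that median was 0.20 for Insig1, -0.18 for Srebf1 and 0.11 for Nr1h3 under median scaling.

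**Figure D2:**
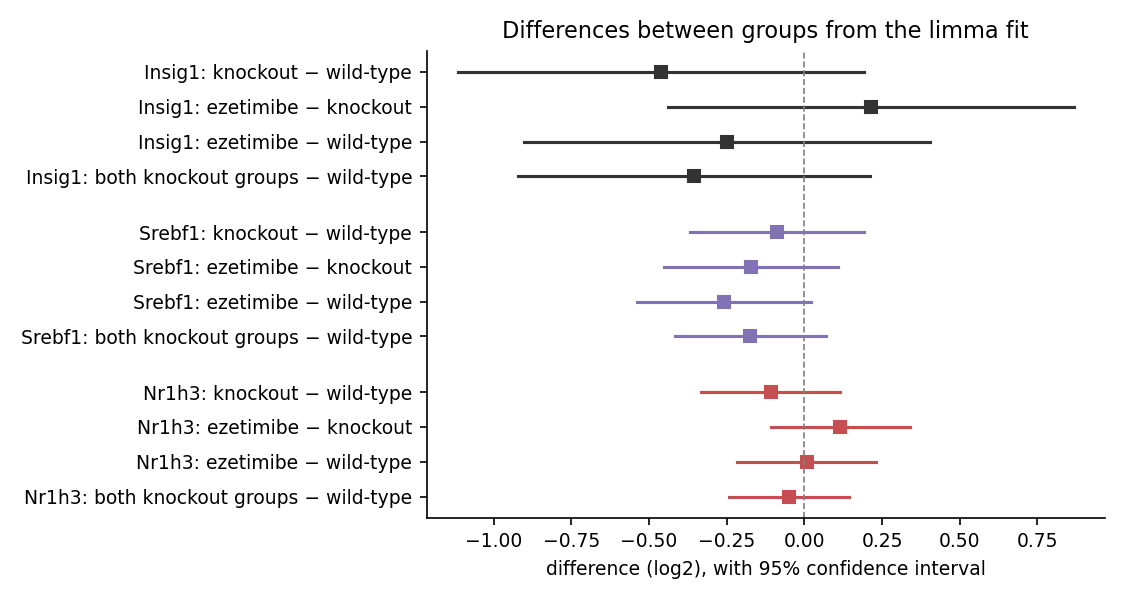
Differences between labelled groups (x, log2 units) for each member and comparison (y), as points with 95% confidence intervals from the limma fit. All 12 intervals include 0, and those of Insig1 are the widest.

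No relation between members over the 6 arrays passed a test. Insig1 and Nr1h3 had Pearson r = 0.63 (exact permutation p = 0.196, adjusted 0.587 over the 3 pairs) and Spearman rho = 0.77 (exact permutation p = 0.103, adjusted 0.308). This r was 0.30 without the arrays farthest from the median of Insig1, wild-type replicate 1 and ezetimibe replicate 2, and 0.17 in the authors' processed values. For Insig1 and Srebf1, r was 0.35 (exact permutation p = 0.49, adjusted 0.71) and rho 0.26 (exact permutation p = 0.658, adjusted 0.714), with r = 0.64 without the same arrays. For Srebf1 and Nr1h3, r was -0.18 (exact permutation p = 0.71, adjusted 0.71) and rho -0.20 (exact permutation p = 0.714, adjusted 0.714), with r = -0.18 without ezetimibe replicate 1 and wild-type replicate 2. With 2 arrays per group no such relation could be given within a group.

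The genes most like Insig1 were led by a pair of sterol synthesis enzymes. Among 3148 genes detected on all arrays with a range at least 0.5 times that of Insig1, Msmo1, which removes methyl groups from the sterol ring, had the highest correlation over the 6 arrays, at r = 0.98. Hsd17b7, a reductase of the same demethylation steps, came next at r = 0.96, followed by Ctsh, a lysosomal protease, at 0.96 and Blcap at 0.96. In all, 14 genes reached 0.9. Such values over 6 arrays that share group and scaling are descriptions. In the authors' processed values Msmo1 was again first of 4047 genes, at 0.98, and Hsd17b7 was number 3, at 0.94. With each array left out in turn the r of Msmo1 was 0.961 to 0.998 and that of Hsd17b7 0.95 to 0.99.

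Msmo1 read 13.44 and 13.21 in wild-type, 12.89 and 12.86 in knockout, and 12.89 and 13.39 in ezetimibe-fed testes on the log2 scale. Hsd17b7 read 10.96 and 10.70, 10.26 and 10.33, and 9.87 and 10.89 in the same order. As for Insig1, wild-type replicate 1 and ezetimibe replicate 2 were the highest arrays, and ezetimibe replicate 1 lay with the knockout-labelled arrays or below them.

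The gap between the ezetimibe-fed mice, a description of 2 arrays with no test, was set beside that of the cholesterol genes. Insig1 was higher in replicate 2 than in replicate 1 by 0.66 log2 units, a gap exceeded in size by 7.84% of all probes. Among cholesterol genes it was 1.02 for Hsd17b7, 0.68 for the desaturase gene Sc5d, 0.57 for Hmgcs1, the synthase that feeds the pathway, 0.50 for Msmo1 and 0.32 for the reductase gene Tm7sf2. In this direction lay 9 of 13 cholesterol synthesis and uptake genes, with a median of 0.17, against 50.9% of all probes and a median below 0.01. Ebp was at -0.03, Pmvk at -0.20, Stard4 at -0.19 and Mvd within 0.01 of 0. Between the wild-type mice, 9 of the 13 were higher in replicate 1, with a median gap of 0.09, and Insig1 by 0.33. Between the knockout-labelled mice, 5 of the 13 were higher in replicate 1, with a median of -0.04, and Insig1 was at -0.11. Msmo1 and Hsd17b7 had been chosen for their likeness to Insig1, and Hmgcs1, Sc5d and Stard4 were named here after their values were seen.

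**Figure D3:**
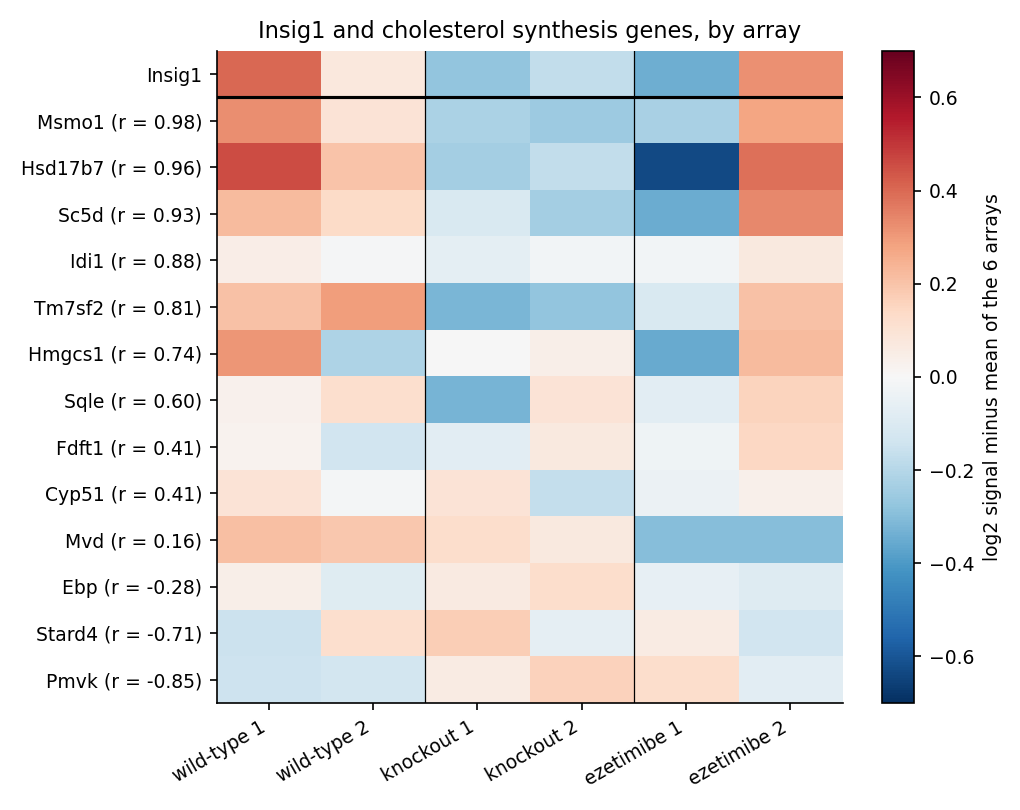
Log2 signal minus the mean of the 6 arrays (colour) for Insig1 and the 13 tested cholesterol synthesis and uptake genes (rows, ordered by their Pearson r with Insig1) on each array (columns, by labelled group). Wild-type 1 and ezetimibe 2 are red and the knockout-labelled arrays and ezetimibe 1 blue in the upper rows, and the lowest rows run opposite.

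Over the whole list, the r with Insig1 had a median of 0.60, with 10 of 13 genes above 0, against a median of 0.00 and 50.4% above 0 over the 8266 other genes. It ran from -0.85 for Pmvk to 0.98 for Msmo1. In the authors' processed values the median was 0.36. For Srebf1 and 10 fatty acid synthesis genes the median r was 0.37, with 8 of 10 above 0 against 47.9% of all genes, and it was 0.15 without ezetimibe replicate 1. Scd2 and Elovl5, a desaturase and an elongase, stood at 0.85 and 0.83. For Nr1h3 and 7 other LXR targets it was -0.40, with 1 of 7 above 0 against 49.5% of all genes. This median turned to 0.37 in the authors' processed values. The -0.40 is the value of Abcg8 itself, the targeted gene, whose probe goes against the label. The 7 values ran from -0.78 for Apoc1 to 0.15 for Lpcat3. The genes most like Srebf1 were Efemp1, Txndc5, Abat and Psma7, at r = 0.98 to 0.99, with 48 of 6337 genes at 0.9 or more. Those most like Nr1h3 were Eif3k, Ncl, Ralgds and Gstt3, at 0.99 each, with 111 of 6900 genes at 0.9 or more, and their ranks in the authors' processed values were 105 to 654.

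None of the genes of SREBP processing passed the test. Of 13 listed genes 8 were on the array, and 0 were called in either direction in any comparison, and 0 had an unadjusted limma p under 0.05, where 0.0125% or fewer of all probes were called. In knockout-labelled against wild-type-labelled testes 2 of the 8 lay above 0 and 6 below, with a median of -0.04 against 0.01 for all probes, which turned to 0.08 under median scaling and to 0.01 without wild-type replicate 2. Mbtps2, the site-2 protease that frees SREBP from the membrane, had the lowest p, at -0.41 (SE 0.21, limma adjusted p = 0.576). Syvn1, an ubiquitin ligase of the endoplasmic reticulum, was at 0.29 (SE 0.26). The escort gene Scap and the second brake gene Insig2, named outside the rule for their role, differed by -0.02 and -0.05 in that comparison and by -0.11 and 0.09 with ezetimibe. Srebf2 and Mbtps1 were not analysed here.

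Cholesterol synthesis and uptake genes, the SREBP2 targets, gave 0 calls among 13 tested of 22 listed, and 1 had an unadjusted limma p under 0.05 in each of the 3 pairwise comparisons. Over all probes 0.0125%, 0% and 0.0125% were called, and 8.99%, 5.76% and 7.24% had an unadjusted p under 0.05. Their median difference was -0.08 in knockout-labelled against wild-type-labelled testes with 9 of 13 below 0, where 49.1% of all probes were below 0, and it turned to 0.04 under median scaling. With ezetimibe the median was 0.06, with 8 of 13 above 0 against 50.2% of all probes, and it was -0.05 in ezetimibe-fed knockout against wild-type, with 10 of 13 below 0 against 48.9%. Without ezetimibe replicate 2 the ezetimibe median was -0.0065, and without replicate 1 that against wild-type was 0.06. Tm7sf2 differed by -0.55 (SE 0.14, limma adjusted p = 0.471) in the first comparison. Mvd, a mevalonate pathway decarboxylase, differed by -0.39 (limma adjusted p = 0.624) with ezetimibe and by -0.50 (limma adjusted p = 0.381) in the last. Msmo1 differed by -0.45 (SE 0.20) and Pmvk by 0.25 in knockout-labelled against wild-type-labelled testes, with limma adjusted p of 0.553 and 0.558.

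Fatty acid and triglyceride synthesis genes, the SREBP1 targets, gave 0 calls among 10 tested of 16 listed, and 1 gene, Lpin1, had an unadjusted limma p under 0.05 in the first comparison and with ezetimibe. Over all probes the shares called were 0.0125% and 0%, and those with an unadjusted p under 0.05 were 8.99% and 5.76%, so 1 of 10 is near the background. Their medians were -0.09 in knockout-labelled against wild-type-labelled testes, -0.18 with ezetimibe and -0.16 in ezetimibe-fed knockout against wild-type, with 7, 8 and 9 of 10 genes below 0, against 49.1%, 49.8% and 48.9% of all probes. The first median turned to 0.03 under median scaling and to 0.01 without wild-type replicate 1. The ezetimibe median was -0.07 without ezetimibe replicate 1 and -0.08 without knockout replicate 2. Lpin1, a phosphatidate phosphatase, differed by -0.33 (SE 0.11, limma adjusted p = 0.535) in the first comparison and by 0.31 (limma adjusted p = 0.838) with ezetimibe. Acss2, which makes acetyl-CoA, differed by -0.41 (SE 0.21, limma adjusted p = 0.913) with ezetimibe. Scd2 at -0.30 (limma adjusted p = 0.728) and Fads2, a desaturase, at -0.31 (limma adjusted p = 0.746) were among the lowest in the last. Srebf1 itself stood at -0.26 there, within the range of this list, -0.31 to 0.08.

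Among LXR receptors, partners and cofactors, 5 of 10 listed genes were tested and 0 were called, where 0.0125% and 0% of all probes were called in the first 2 comparisons. A member of the list, Nr0b2, was kept through its signal on the ezetimibe arrays alone. It is left out of the counts that follow but not of the list median. Of the other 4, 0 had an unadjusted limma p under 0.05, against 8.99% and 5.76% of all probes. In knockout-labelled against wild-type-labelled testes these 4, Nr1h3 among them, lay below 0, as did 49.1% of all probes, and with ezetimibe they lay above 0, as did 50.2%. These comparisons share the knockout-labelled arrays. Rxrb, an RXR partner of LXR alpha, differed by -0.16 (SE 0.09, limma adjusted p = 0.584) and then by 0.18 (SE 0.09, limma adjusted p = 0.913), beside -0.11 and 0.12 for Nr1h3. Under median scaling the median of the list, Nr0b2 included, moved from -0.16 to -0.03 in the first comparison. Nr1h2, the LXR beta gene, was not analysed here.

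Of 15 LXR targets listed, 8 were tested, with Srebf1 and Nr1h3 among them. Abca1, Abcg1 and Abcg5, the main sterol exporters under LXR, were not detected on any array. Abcg8 was the 1 gene called, higher in both knockout-labelled groups against wild-type, where 0.0125% of all probes were called. In ezetimibe-fed knockout against wild-type the call was lost without either wild-type array, without either ezetimibe array and with no filter on dim probes. In knockout-labelled against wild-type-labelled testes 5 of 8 lay above 0, against 50.9% of all probes, with a median of 0.17. Abcg8, the targeted gene, at 3.88, is among these 5 and counts in the median. The other targets ran from -0.11 for Nr1h3 to 0.27 for Apoc1. The median was 0.28 under median scaling, 0.02 without wild-type replicate 2 and 0.05 without knockout replicate 2, with Abcg8 counted throughout. With ezetimibe 5 of 8 lay below 0, against 49.8% of all probes. Among them were Apoe, an apolipoprotein of macrophages and other cells, at -0.72 (SE 0.14, limma adjusted p = 0.54), and Apoc1 at -0.61 (SE 0.18, limma adjusted p = 0.779). Srebf1, at -0.17, was below 0 in the same comparison and Nr1h3, at 0.12, above it. An unadjusted limma p under 0.05 was found there for 2 of 8, Apoe and Apoc1, beside 5.76% of all probes. In knockout-labelled against wild-type-labelled testes 1 of 8 had it, Abcg8, beside 8.99%. In ezetimibe-fed knockout against wild-type 2 of 8 had it, Abcg8 and Apoe, beside 7.24%.

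**Figure D4:**
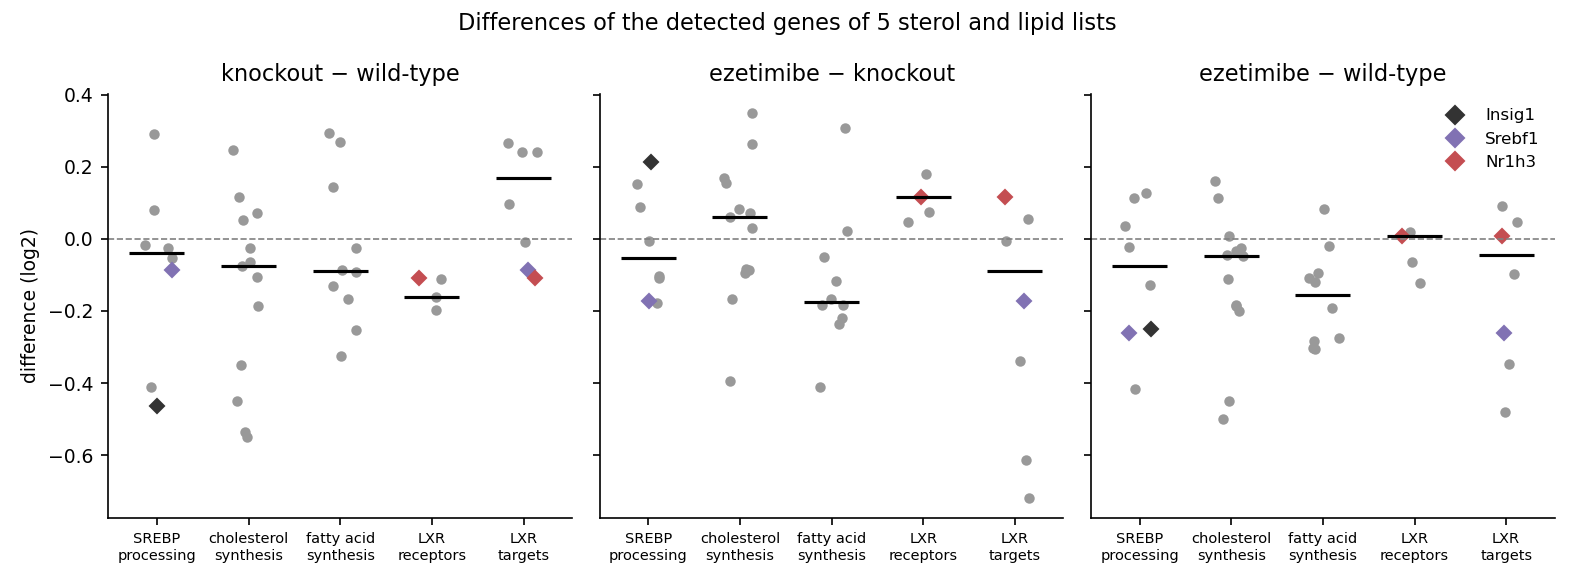
Differences (y, log2 units) of the tested genes of 5 lists (x) in 3 comparisons; grey points are genes, diamonds the members, and bars the list medians. Abcg8 and Nr0b2 are not drawn in any comparison but count in the medians. The fatty acid genes have medians of -0.09, -0.18 and -0.16.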

How the data were processed

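Testis RNA was labelled with digoxigenin, 1 array per mouse, per the labels' protocols. The deposited raw table holds, per the file headers, raw signal intensity with its signal-to-noise score for each probe; no source used here names the scanner or software. The authors also deposited processed intensity values, which on each array differ from the raw ones by a constant factor. 

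Raw signals were taken as log2 and quantile-normalised with limma 3.58.1 in R 4.3.3. A probe was kept where, in 1 group or more, both signal-to-noise values reached 3. lmFit and eBayes were fitted to all 6 arrays with 1 mean per group, with Benjamini-Hochberg adjustment over 16015 probes and a threshold of 0.05. Signed differences are first group minus second. With 2 arrays against 2, the smallest exact permutation p is 0.333. Precision is limited by the number of arrays, and the SE had a median of 0.14 over probes. On simulated data for knockout against wild-type over 16015 probes, 29 of 50 changes of 1 log2 unit, 47 of 50 of 2, 50 of 50 of 3 and 48 of 50 of 4 were recovered, and 15 unchanged probes were called. The real comparison called 2 probes, Abcg8 at 3.88 among them. Hba-a1 at 1.85 (limma adjusted p = 0.435) and Dhh, detected on 5 of 6 arrays, at 1.93 (limma adjusted p = 0.54) were not called in it. The simulated shares are therefore not the power of that comparison.

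Symbols came from the platform annotation, with 14411 probes of 1 symbol, 247 of several and 18354 with none listed; gene identifiers of GRCm38.p6 changed 0 symbols. Of several tested probes of a gene the brightest stood for it. Members, gene lists and markers were chosen with earlier results of these data known. Named list genes are those called, else up to 4 with the lowest p per list and comparison; the genes most like a member are the 4 with the highest r. The labels give no batch and no shared replicate numbers, and do not say whether mice were littermates. The p-values then measure the spread between these mice, and may include technical spread. Alternatives were other scalings, filters, prior variances, array weights and leaving out each array.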

Additional observations from a re-analysis of the deposited data

How the results depend on the processing

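No paired analysis was possible because the groups share no replicate numbers. None of the 12 member differences passed under any alternative: the limma adjusted p was 0.392 or more throughout, and 168 of 177 values kept their direction. Knockout against wild-type turned for Srebf1 to 0.027 under median scaling and 0.027 in the authors' processed values, and for Nr1h3 to 0.015 and 0.016; over both diets Nr1h3 turned to 0.043 in each. Without 1 array at a time, Insig1 ranged from -0.63 to -0.30 in knockout against wild-type, from -0.12 to 0.54 with ezetimibe (below 0 without ezetimibe replicate 2) and from -0.58 to 0.080 in ezetimibe-fed knockout against wild-type (above 0 without ezetimibe replicate 1). Nr1h3 ranged from -0.0050 to 0.018 in the last, below 0 without ezetimibe replicate 2, and Srebf1 from -0.17 to -0.01, -0.25 to -0.09 and -0.32 to -0.20 in the same 3 comparisons. The median r of LXR targets, Abcg8 included, with Nr1h3 turned from -0.40 to 0.37 under median scaling and in the authors' processed values. This alternative was chosen after seeing the data.

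Counts of called probes were 2 in knockout against wild-type, 0 with ezetimibe, 2 in ezetimibe-fed knockout against wild-type, 2 over both diets and 2 by the F test. With an intensity trend in the prior variance they were 31, 14, 26, 29 and 38. With no filter on dim probes all 5 were 0. With probes detected on all 6 arrays the first was 4 and that over both diets 5. With array weights the third was 1 and the F test 1, and with only the arrays compared the first was 0 and the third 1. Leaving out 1 array gave 0 to 1, 0 to 4, 0 to 3, 0 to 61 and 0 to 1; the 61 came without wild-type replicate 1, the 4 without ezetimibe replicate 1. No member was among any of these calls. The cause of these shifts was not tested. With ezetimibe, 922 probes had an unadjusted p under 0.05. List medians stayed within their replicate spread in 252 of 295 values. With an intensity trend in the prior variance 1 LXR target was called with ezetimibe.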

Other observations

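Nr0b2, the gene of the small heterodimer partner, a corepressor that binds LXR and other nuclear receptors, was detected in no mice but the ezetimibe-fed ones, whose signal-to-noise values were 3.74 and 4.37. Its raw signal was 653 and 1005 there, 235 and 229 for knockout and 699 and 183 for wild-type labels, where the signal-to-noise was at most 2.3. The measured mean in ezetimibe-fed testes was 3.13-fold that in chow-fed knockout-labelled testes and 1.66-fold that in wild-type-labelled testes. Both ratios divide by values that were not detected and are no bound on a difference. In raw signal wild-type replicate 1, at 699, lay above ezetimibe replicate 1, at 653. On the normalised log2 scale wild-type replicate 1, at 9.06, was close to ezetimibe replicate 1, at 9.17. The probe was kept through the ezetimibe arrays alone and singled out after its values were seen, so no test is given.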
